A study of Mus musculus with 14 samples.

Results

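Among the 10 adenosine genes chosen here, Adk, which encodes adenosine kinase, gave the widest difference in cultured mouse astrocytes. Where it was measured, its signal was far lower in samples labelled Cx43 siRNA than in wild-type or Cx43 null samples. The other genes of this set with values differed less. Ahcyl1 was the only one of them that read higher in every Cx43 null and every Cx43 siRNA sample than in every wild-type sample. Of all tested probes, 5.54% (null) and 4.49% (siRNA) separated from wild type in that direction. The Ahcyl1 calls were lost in several alternative fits. The genes described are Adk, Ada, Nt5e, Entpd1, Entpd2, Slc29a1, Adora1, Adora2a, Adora2b and Ahcyl1, taken by gene symbol from the probe-gene table. Of these 10 genes, 7 had a probe (9 probes in all), among 13661 genes with a probe of 1 symbol. The set was chosen for the large change of Adk in these same samples, so Adk is described with no test. Adora1, Adora2a and Adora2b, which encode adenosine receptors, matched no symbol in the table and were not analysed here. The probe of Nt5e, the gene of ecto-5'-nucleotidase (3096), held no value in any sample used. The filter on missing values left 6 probes of 5 genes for testing.

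RNA came from astrocytes cultured from the brains of newborn mice, labelled as cortical although the protocol describes whole brain. The groups were untreated wild type, Cx43 null (cells lacking connexin43, the main gap junction protein of astrocytes, encoded by Gja1) and Cx43 siRNA (wild-type cells transfected with 20 ug of a small interfering RNA construct against Cx43). The sources used here do not give the mouse strain, the null allele or a transfection control. The design text gives 36 h of siRNA treatment, and the protocol gives 48 h for the collection of protein. From each sample, 20 ug of total RNA was labelled with Cy3 or Cy5 and read on printed oligonucleotide arrays. Wild-type replicates 3, 4 and 6, Cx43 null replicates 1 to 4 and Cx43 siRNA replicates 1 to 4 were used.

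Adenosine is a breakdown product of ATP and a modulator of neurons and glia. Ectonucleotidases at the cell surface cut extracellular ATP and ADP to AMP, and 5'-nucleotidase turns AMP into adenosine. Equilibrative transporters carry adenosine across the membrane, and inside the cell adenosine kinase returns it to AMP while adenosine deaminase turns it into inosine. In adult brain adenosine kinase is found mostly in astrocytes, where it is regarded as the main route of adenosine clearance.

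The deposited values are log2 numbers centred so that the median of each of 48 runs of 700 probes lay within 0.00255 of 0 in every sample. A positive value is therefore a signal above the median probe of its run, and values of different probes are not compared. Between 17849 and 26826 of 33600 probes had a value in a sample. Wild-type replicates 1, 2 and 5 were left out by the sample choice. Across probes they correlated with the mean of the samples used at r = 0.37, 0.38 and -0.020, against 0.894 to 0.948 for the samples used. Set against the probe 28 numbers earlier, replicates 1 and 2 gave r = 0.60 and 0.64, so many of their rows appear displaced, and fits with all 14 samples mix in values of other probes. Consecutive samples of a group carry opposite dyes, may share an array and correlated at r = 0.927 to 0.991. The linear model (limma) held dye and replicate set (numbers 1 and 2 against 3 and above) as covariates, and calls were made where the adjusted p lay under 0.05. No wild-type sample used has number 1 or 2, so each difference from wild type rests on the set term. No label ties a sample to its own culture, so each p-value reflects the spread of these samples alone, and that spread could be technical.

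The targeted gene was read first as a check of the labels. Gja1 (probe 3558, chr10:56377300-56390419 in GRCm38.p6) read 6.08, 7.53 and 4.82 in wild-type replicates 3, 4 and 6. It read -1.17, -1.06, 2.82 and 3.03 in Cx43 null replicates 1 to 4, all below every wild-type sample. In the samples labelled Cx43 siRNA it read 1.93, 2.14, 5.47 and 5.70, so replicates 3 and 4 overlapped wild type. Null minus wild type was -3.31 ± 0.58 on the log2 scale (SE; limma adjusted p = 0.0477). With array pairs as a random block adjusted p was 0.327, and it was 0.0569 to 0.231 without wild-type replicate 3 or 4, any 1 null replicate, or siRNA replicate 1, 3 or 4. The siRNA minus wild-type difference was -0.41 ± 0.58 (limma adjusted p = 0.734), so a lower Gja1 signal was not detectable in the siRNA samples beyond the spread. Every siRNA direction below is that of the libraries labelled so. The sources used here do not say whether the Gja1 probe lies in the deleted part of the null allele.

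Adk lies at chr14:21052574-21448569 in GRCm38.p6. RefSeq lists 2 transcription starts for it, 23578 bases apart, and the gene is known to give a longer nuclear and a shorter cytoplasmic enzyme from separate starts. The sources used here do not say which of them the probe reads. The 250 bases before each Adk start, and before the most upstream of 3 listed starts of Ahcyl1, are shown because these genes gave the widest differences. Sequences are from RefSeq (GRCm38.p6), 5' to 3' on the gene's strand, and capitals mark matches on either strand to 5 searched motifs. These were GGGCGG (the GC box of Sp1-type factors), TGACGTCA (the cAMP response element), CACGTG (an E-box), TATAAA (the TATA box) and TGACNNNGC (the antioxidant response element core).
Adk, start 1, chr14:21052324-21052573, plus strand: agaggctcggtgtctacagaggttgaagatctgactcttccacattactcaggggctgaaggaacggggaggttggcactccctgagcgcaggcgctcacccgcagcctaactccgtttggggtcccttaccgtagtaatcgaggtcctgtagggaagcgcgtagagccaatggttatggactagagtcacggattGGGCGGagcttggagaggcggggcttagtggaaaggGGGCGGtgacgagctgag
Adk, start 2, chr14:21075902-21076151, plus strand: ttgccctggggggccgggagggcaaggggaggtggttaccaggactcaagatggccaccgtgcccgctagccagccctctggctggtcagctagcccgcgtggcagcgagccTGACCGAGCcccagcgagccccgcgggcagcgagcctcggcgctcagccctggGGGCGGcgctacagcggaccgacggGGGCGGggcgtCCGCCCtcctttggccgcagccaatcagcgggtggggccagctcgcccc
Ahcyl1, start 1, chr3:107696561-107696810, minus strand: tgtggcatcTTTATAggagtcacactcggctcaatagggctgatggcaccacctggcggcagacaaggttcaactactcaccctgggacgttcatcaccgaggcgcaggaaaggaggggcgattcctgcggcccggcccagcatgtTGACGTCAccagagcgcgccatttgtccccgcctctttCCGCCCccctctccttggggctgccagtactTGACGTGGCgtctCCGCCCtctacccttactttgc

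The window before the first Adk start held 2 GGGCGG matches and no other motif, with 58.8% G+C and 15 CpG. The window before the second held 3 GGGCGG matches and 1 TGACNNNGC match, with 75.2% G+C and 24 CpG. The Ahcyl1 window shown held 2 GGGCGG, 1 TGACGTCA, 1 TATAAA and 1 TGACNNNGC match, none overlapping another, with 61.2% G+C and 16 CpG. Of the Ahcyl1 windows not shown, that of start 2 held 2 GGGCGG matches alone and that of start 3 no searched motif. Among 32841 windows of the same length in the RefSeq table, 32.7% held GGGCGG, 1.55% TGACGTCA, 6.02% CACGTG, 12.4% TATAAA and 10.2% TGACNNNGC, and the median window had 52.4% G+C and 6 CpG. All 3 windows shown were thus above the median in both measures. A match describes the letters of a window and says nothing of what binds there in astrocytes.

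Adk (probe 24988) read 4.56, 3.20 and 3.31 in wild-type replicates 3, 4 and 6, a mean of 3.69 ± 0.76 (SD, n = 3). It read 4.58 and 4.68 in Cx43 null replicates 3 and 4. In Cx43 siRNA replicates 3 and 4 it read -1.58 and -1.39, below the median probe, whereas every wild-type and null value stood above it. Null and siRNA replicates 1 and 2 gave no Adk value, and the sources used here give no reason for a missing value. Of 17759 probes with a value in all 7 samples of replicates 3 and above, 1294 (7.29%) had none in any of those 4 samples.

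The Adk signal was 36.2-fold lower in siRNA than in wild-type samples as a difference of means over replicates 3 and above (-5.18 on the log2 scale). Null minus siRNA was 6.12 (69.4-fold) and null minus wild type 0.94 (1.92-fold). Both null values lay only slightly above the highest wild-type value, whereas the siRNA values stood apart from all others. Leaving out 1 sample at a time gave -5.42 to -4.74 for siRNA minus wild type, 6.02 to 6.21 for null minus siRNA and 0.69 to 1.37 for null minus wild type. Among the 17759 probes complete in these 7 samples, 26 (Adk included) had a siRNA minus wild-type difference as low, 17 a null minus siRNA difference as high and 4208 a null minus wild-type difference as high. Groups that do not overlap were common: 16.7% of these probes had both siRNA samples below all wild-type samples, 24.5% had both null samples above them, and 39.4% had both null samples above both siRNA samples. Each null and siRNA mean here comes from 1 consecutive pair of samples that may share an array, so group and array cannot be told apart.

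**Figure D1:**
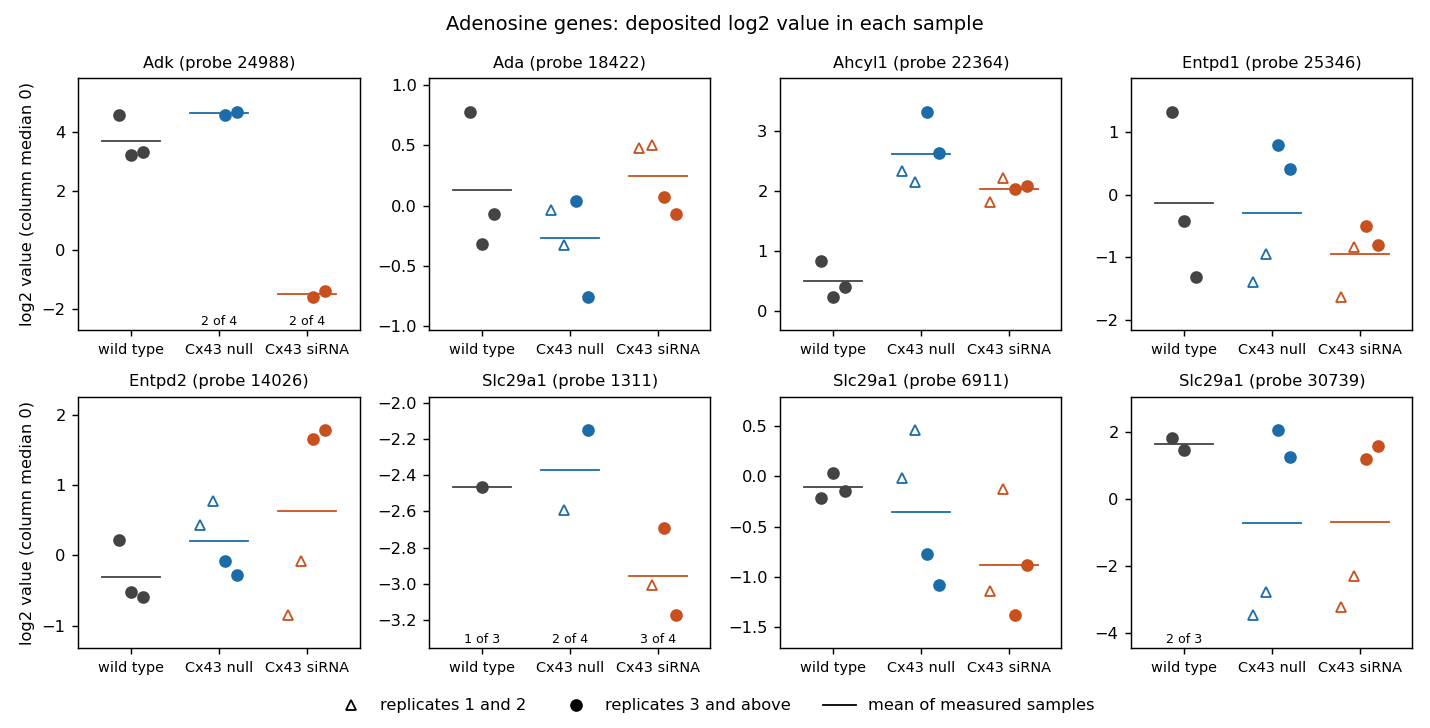
Deposited log2 value (vertical axis, column median 0) of each measured adenosine gene probe in every sample, by group. Open triangles are replicates 1 and 2, filled circles replicates 3 and above, lines the mean of measured samples, and small print the number measured where values are missing. The 2 Adk values in Cx43 siRNA samples lie at -1.58 and -1.39, far below the other 5, and Slc29a1 probe 30739 separates by replicate number in null and siRNA samples.

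Markers of several cell types differed between the same samples. In replicates 3 and above the mean of the 14 astrocyte markers complete there (18 listed) was 2.80 to 3.75 in wild-type, 3.31 to 3.67 in null and 2.48 to 2.71 in siRNA samples. The mean of 15 complete microglia markers (20 listed) was 3.51 to 4.12 in wild-type, 2.40 to 3.32 in null and 1.94 to 2.48 in siRNA samples. The mean of 6 ependyma markers (8 listed) was -0.23 to 1.83 in wild-type, 1.82 to 1.93 in null and -0.43 to -0.42 in siRNA samples. For 10 fibroblast and mural markers (15 listed) it was 0.73 to 3.05, 0.80 to 1.44 and -0.51 to 0.21 in the same order. For 7 neuronal markers (14 listed) it was -0.27 to 0.25, 0.20 to 0.43 and -0.62 to -0.52. For 7 oligodendrocyte-lineage markers (15 listed) it was 1.15 to 2.10, 1.68 to 2.17 and 1.38 to 1.46. For 3 endothelial markers (11 listed) it was -1.14 to 0.40, -0.67 to 0.59 and -1.24 to -0.75. Counting the probe that stands for each gene, 7 of 15 tested microglia markers fell in siRNA minus wild type, with a list median of -1.81, and of 14 astrocyte markers 1 rose and 2 fell. Likewise 0 of 7 oligodendrocyte-lineage, 1 of 11 fibroblast and mural, 1 of 4 endothelial, 1 of 7 neuronal and 1 of 6 ependyma markers fell, and none of these rose. Of all probes 2.02% were called lower and 5.09% higher in that comparison. Null minus wild type, with 0.292% of all probes called, called no microglia marker and 1 astrocyte marker at such a probe, Gja1 itself, and a second probe of Acsl6 (2.57, limma adjusted p = 0.0477). The Gfap probe held no value in any sample used, and Cx3cr1, Csf1r and Cd68 matched no symbol. The part of these markers in the Adk difference was not tested, and fewer cells of a type cannot be told apart from less RNA per cell.

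The probes that ran most like Adk over its 7 samples were Sema3b (a secreted semaphorin; r = 0.997), N4bp2l1 (r = 0.992), Capza1 (an actin-capping subunit; r = 0.990), Maf1 (a repressor of RNA polymerase III; r = 0.990) and Hibadh (a mitochondrial enzyme of valine breakdown; r = 0.989). All points share these 7 samples, and the distance between the groups sets most of each coefficient. Over replicates 3 and above the siRNA minus wild-type difference of means was -3.64 for Sema3b, -3.48 for N4bp2l1 and -5.40 for Capza1. It was -5.35 for Maf1 and -3.21 for Hibadh. Over the same 7 samples Sema3b read 1.91 to 3.10 in wild-type, 3.12 to 3.13 in null and -1.24 to -1.15 in siRNA samples. The 5 probes also had values in null and siRNA replicates 1 and 2, where Adk had none. There siRNA gave -1.03 and -0.57 for Sema3b (null -0.33 and 0.38) and -1.77 and -0.75 for N4bp2l1 (null 0.08 and -0.01). Capza1 gave 3.28 and 3.48 (null 4.23 and 4.06), Maf1 1.50 and 2.05 (null 1.46 and 1.54) and Hibadh 3.11 and 3.31 (null 3.35 and 3.41). The low siRNA values of Capza1, Maf1 and Hibadh were thus those of replicates 3 and 4. Among the 7 samples each of the 5 probes had both siRNA values below all wild-type and null values, as Adk did. They were picked for likeness to Adk over these samples, so nothing is read from this. Of all 17759 probes complete there, 16.7% had both siRNA samples below all wild-type samples, and 39.4% both null samples above both siRNA samples.

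**Figure D2:**
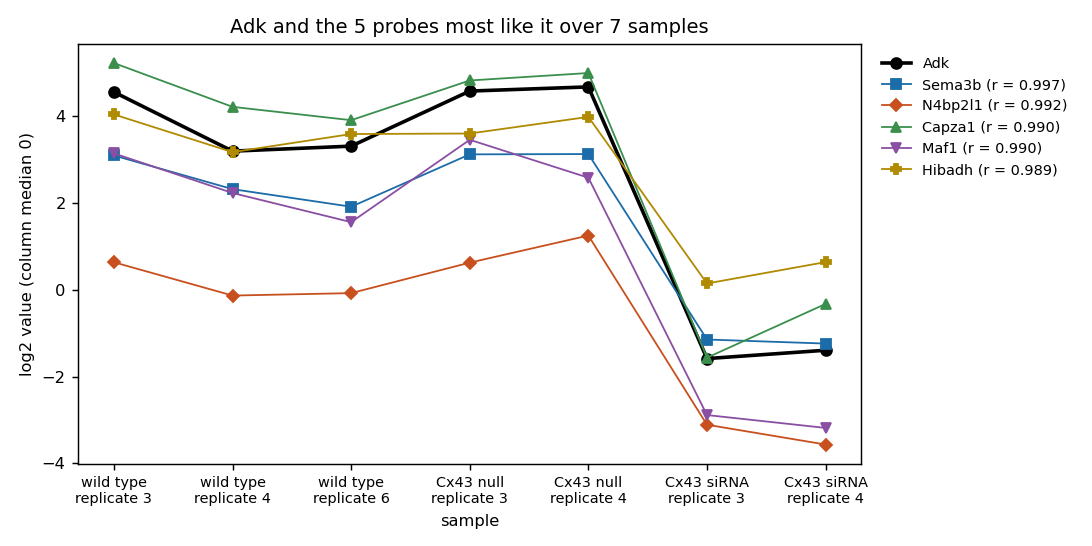
Deposited log2 value (vertical axis, column median 0) of Adk and of the 5 probes with the highest Pearson r to it, in the 7 samples with an Adk value (horizontal axis). Lines join the values of 1 probe, and every probe is lowest in the 2 Cx43 siRNA samples, with siRNA minus wild-type differences from -5.40 (Capza1) to -3.21 (Hibadh).

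Ada encodes adenosine deaminase, the other intracellular route of adenosine removal. Probe 18422 (chr2:163726571-163750239) read 0.78, -0.32 and -0.07 in wild-type samples, -0.04, -0.33, 0.04 and -0.75 in null replicates 1 to 4, and 0.48, 0.50, 0.07 and -0.07 in siRNA replicates 1 to 4. The groups overlapped, and siRNA replicates 3 and 4, where Adk was low, lay within the wild-type range. The fitted siRNA minus wild-type difference was -0.13 ± 0.37 (SE). Null minus wild type was -0.65 ± 0.37 (limma adjusted p = 0.425) and null minus siRNA -0.52 ± 0.31 (limma adjusted p = 0.330).

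Ahcyl1 encodes a relative of S-adenosylhomocysteine hydrolase, the enzyme that releases adenosine in the methionine cycle. Its protein, also called IRBIT, is known for binding inositol trisphosphate receptors and ion transporters. Ahcyl1 (probe 22364, chr3:107663120-107696560) read 0.83, 0.23 and 0.40 in wild-type samples. It read 2.34, 2.15, 3.32 and 2.64 in null samples and 1.82, 2.22, 2.02 and 2.08 in siRNA samples. Every null and every siRNA sample lay above every wild-type sample, a separation that 5.54% (null) and 4.49% (siRNA) of tested probes showed in the same direction.

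Ahcyl1 rose in null samples: null minus wild type was 2.28 ± 0.38 (SE), or 4.87-fold (limma adjusted p = 0.0464). It was the 1 call among 6 tested adenosine probes in a comparison that called 0.292% of 18479 probes (54), 0.211% upward. With the replicate number as a block 224 probes passed, Ahcyl1 among them (2.28, limma adjusted p = 0.0286). Replicate 6 occurs only in wild type, so in that fit wild type rests on replicates 3 and 4 alone. The call lay close to the threshold and ended with array pairs as a random block (2.29, adjusted p = 0.327), without the replicate set term (2.09, 0.559), with all 14 samples as deposited (2.09, 0.504) and with columns scaled to 1 SD (2.32, 0.0553). It also ended without wild-type replicate 4, any 1 null replicate, or siRNA replicate 1, 3 or 4 (adjusted p 0.0569 to 0.231), while the difference stayed between 2.01 and 2.43 in the 11 fits that left out 1 sample. The siRNA minus wild-type difference was 1.71 ± 0.38, or 3.26-fold, and null minus siRNA 0.58 ± 0.32 (limma adjusted p = 0.293). In siRNA minus wild type, which called 7.11% of probes and 5.09% upward, Ahcyl1 was the 1 adenosine probe of 6 called. That call ended with array pairs as a random block, without the set term, with all 14 samples, in replicates 3 and above alone, and without wild-type replicate 4 or siRNA replicate 3 or 4 (differences of 1.56 to 1.90 over all fits that left out 1 sample). The set was chosen from that contrast, so nothing is read from the count.

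Entpd1 and Entpd2 encode ectonucleotidases, the first cutting ATP and ADP to AMP and the second mostly ATP to ADP. Entpd1 (probe 25346, chr19:40612366-40741602) read 1.33, -0.42 and -1.32 in wild-type samples, -1.40, -0.96, 0.80 and 0.42 in null samples and -1.63, -0.84, -0.50 and -0.80 in siRNA samples. Wild-type samples alone spanned almost the whole range of the gene. The siRNA minus wild-type difference was -0.28 ± 0.61 (SE), null minus wild type 0.37 ± 0.61 (limma adjusted p = 0.831) and null minus siRNA 0.65 ± 0.51 (limma adjusted p = 0.467). In the null samples, and by a narrow margin in the siRNA samples, the values of replicates 1 and 2 lay below those of replicates 3 and 4.

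Entpd2 (probe 14026, chr2:25395874-25401323) read 0.21, -0.52 and -0.60 in wild-type samples. It read 0.43, 0.77, -0.08 and -0.28 in null samples and -0.85, -0.08, 1.65 and 1.78 in siRNA samples. The order of null and siRNA turned with the replicate number: in replicates 1 and 2 the null samples were higher, and in replicates 3 and 4 the siRNA samples were higher. Null minus siRNA was 1.07 in replicates 1 and 2 and -1.90 in replicates 3 and 4, and the difference between these was 2.96 ± 0.43 (SE; limma interaction over 8 samples, adjusted p = 0.00592). This interaction, chosen after the values were seen, was called for 21.2% of 14728 probes. Each of the 4 values behind it comes from 1 consecutive pair that may share an array, so group and array cannot be told apart. Over both sets null minus siRNA was -0.41 ± 0.54 (limma adjusted p = 0.684), null minus wild type 0.87 ± 0.65 (limma adjusted p = 0.567) and siRNA minus wild type 1.28 ± 0.65.

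Slc29a1 encodes ENT1, the equilibrative nucleoside transporter that moves adenosine in either direction (chr17:45585200-45599618). Its 3 probes disagreed. Probe 6911 read -0.21, 0.03 and -0.14 in wild-type samples. Null replicates 1 to 4 gave -0.01, 0.46, -0.78 and -1.09, and siRNA replicates 1 to 4 gave -1.14, -0.12, -1.38 and -0.88. Only siRNA replicate 2 of that group reached the wild-type range. The siRNA minus wild-type difference was -1.13 ± 0.39 (SE), null minus wild type -0.60 ± 0.39 (limma adjusted p = 0.494) and null minus siRNA 0.53 ± 0.32 (limma adjusted p = 0.344).

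Probe 30739 of Slc29a1 followed the replicate number. It read 1.82 and 1.45 in wild-type replicates 3 and 4 and gave no value in replicate 6. Null samples gave -3.46, -2.77, 2.05 and 1.27, and siRNA samples -3.23, -2.29, 1.19 and 1.59, so in both groups replicates 1 and 2 were low and replicates 3 and 4 high. Replicates 1 and 2 minus the others was -4.46 (limma adjusted p = 9.28e-06), against 44.8% of probes called for this term and 39.2% downward. Between groups it differed by -0.09 ± 0.49 (siRNA minus wild type), -0.14 ± 0.49 (null minus wild type; limma adjusted p = 0.931) and -0.04 ± 0.37 (null minus siRNA; limma adjusted p = 0.958). Probe 1311 read -2.46 in wild-type replicate 4, -2.59 and -2.15 in null replicates 2 and 4, and -3.01, -2.69 and -3.17 in siRNA replicates 2, 3 and 4, and was not tested.

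**Figure D3:**
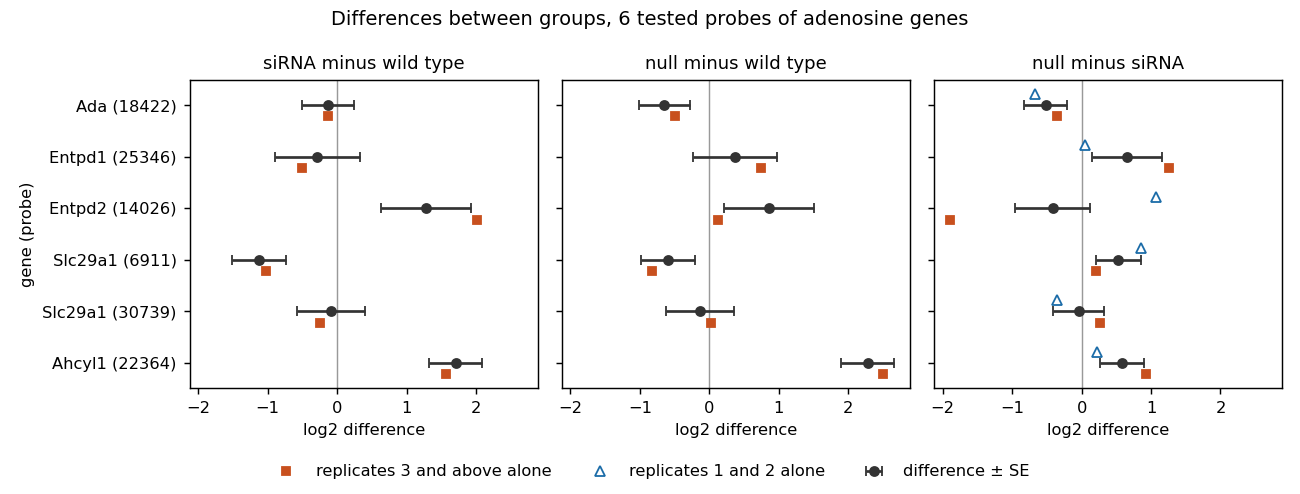
Fitted log2 difference (horizontal axis) of the 6 tested adenosine gene probes (vertical axis) in the 3 comparisons, with bars of 1 SE. Orange squares give the difference in replicates 3 and above alone and open blue triangles that in replicates 1 and 2 alone. Ahcyl1 stands at 1.71 and 2.28 against wild type, and Entpd2 lies on opposite sides of 0 in the 2 sets (1.07 and -1.90) in null minus siRNA.

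Over the 6 tested probes the median difference was -0.11 in siRNA minus wild type, 0.12 in null minus wild type and 0.24 in null minus siRNA, beside 0.13, 0.23 and 0.09 over all 18479 probes. Null minus siRNA called 0 of the 6 by limma, and 0 had an unadjusted p under 0.05, beside 6.03% of all probes called (1115, and 1748 with the replicate number as a block). These medians describe only the probes that passed the filter, which Adk did not.

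The wider purine and adenosine pathway was read from lists of 97 other genes, of which 76 had a probe and 57 were tested. In siRNA minus wild type 2 rose and 2 fell (7.02%, beside 7.11% of all probes, 5.09% upward and 2.02% downward), and 18 had an unadjusted p under 0.05, as had 23.2% of all probes. By limma 0 passed in null minus wild type, where 11 had an unadjusted p under 0.05, as had 16.1% of all probes. In null minus siRNA 7 rose and none fell by the probe that stands for each gene (12.3%, beside 6.03% of all probes, 3.69% upward), and 18 had an unadjusted p under 0.05, as had 24.5% of all probes. In the same comparison 6 of 15 microglia markers rose (list median 1.44, 15 of 15 above 0), as did 3 of 14 astrocyte (1 fell), 2 of 6 ependyma, 1 of 7 oligodendrocyte-lineage, 1 of 4 endothelial, 0 of 11 fibroblast and mural and 0 of 7 neuronal markers, and their part in the pathway count was not tested. The comparisons share their samples, so these counts are not independent of each other.

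Of the enzymes, Ampd3, an AMP deaminase that draws AMP away from adenosine formation, rose in siRNA samples at both probes. Probe 32339 gave -0.02, -2.11 and -2.82 in wild-type samples, -0.72, -0.69, 0.58 and -1.75 in null samples and 0.34, 1.30, 2.02 and 2.15 in siRNA samples, with siRNA minus wild type at 3.31 ± 0.70 (SE; limma adjusted p = 0.0178). Probe 2911 gave 2.76 ± 0.44 (limma adjusted p = 0.0067). Every siRNA sample lay above every wild-type sample at both probes, as for 4.49% of tested probes in this direction. Null minus siRNA was -2.10 at the first probe (limma adjusted p = 0.0543) and -2.42 at the second (limma adjusted p = 0.00894). Xdh, the xanthine dehydrogenase of the last steps of purine breakdown, rose in siRNA samples by 2.74 ± 0.52 (limma adjusted p = 0.0156). Wild-type samples gave -2.48, -2.35 and -0.89 and siRNA samples -0.94, -0.84, 0.82 and 0.75, so the groups overlapped at one sample each. In null minus wild type Xdh had the smallest p of these lists, 3.35 with limma adjusted p = 0.0824. Its null values were -0.30 and -0.27 in replicates 1 and 2, with none in replicates 3 and 4. No null value of Xdh thus shared a replicate set with a wild-type value. The fitted 3.35 rests on the set shift of the siRNA samples. Dguok (deoxyguanosine kinase; -2.14, limma adjusted p = 0.104) and Gnaq (a G protein subunit; 1.37, limma adjusted p = 0.115) followed, and none passed. At that Dguok probe (9182) null replicates 1 and 2 gave 1.80 and 1.87, within the wild-type range of 1.74 to 2.43. Only null replicates 3 and 4 were low, at -0.19 and -1.26. The other Dguok probe (3582) gave 1.25 to 1.66 in wild-type samples and 0.57 to 1.72 in null samples.

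In null minus siRNA the called metabolic genes were Slc29a3, Ahcyl2 and Ak4. Slc29a3, an equilibrative nucleoside transporter of internal membranes, was higher in null by 3.52 ± 0.60 (SE; limma adjusted p = 0.0148). Null samples gave -2.02, -2.61, -0.07 and -0.12 and siRNA replicates 3 and 4 gave -3.09 and -4.15, with no value in siRNA replicates 1 and 2. Ahcyl2, the closest relative of Ahcyl1, was higher in null by 2.14 ± 0.49 (limma adjusted p = 0.0289) at probe 16342, where null samples gave 2.89, 3.11, 3.61 and 3.98 against 1.86, 2.41, 0.69 and 0.10 for siRNA samples. Its other probes gave 1.00 and 0.28 and did not pass. Ak4, a mitochondrial adenylate kinase, was higher in null by 1.72 ± 0.42 (limma adjusted p = 0.0339), and its other probe gave 0.96.

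Adenosine receptors act through G proteins on adenylyl cyclases, which make cyclic AMP. Of 17 tested genes of this coupling, 2 fell in siRNA minus wild type (11.8%, beside 2.02% of all probes called lower), with a list median of -0.74 beside 0.13 over all probes and 4 of 17 above 0. Rapgef3, which encodes the cyclic AMP sensor Epac1, fell in siRNA samples by 3.75 ± 0.71 (SE; limma adjusted p = 0.0111). Wild-type samples gave 2.36, 2.02 and 3.21, null samples 2.89, 3.27, 2.23 and 2.20, and siRNA samples 1.53, 2.13, -3.04 and -1.12, so the low values were those of siRNA replicates 3 and 4. Adcy2, an adenylyl cyclase, fell by 1.67 ± 0.46 (limma adjusted p = 0.0488) at probe 16404, while 2 other tested probes gave 0.34 and -0.12.

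In null minus siRNA 4 of the 17 coupling genes rose (23.5%, beside 3.69% of all probes called higher), with a list median of 0.71 beside 0.09. They were Rapgef3 (2.77 ± 0.59 SE, limma adjusted p = 0.0221), Crem (a cyclic AMP-responsive modulator; 1.71 ± 0.34, 0.0161), Adcy9 (1.45 ± 0.30, 0.0205) and Adcy3 (1.40 ± 0.33, 0.0326). Crem probe 2095 gave 1.64, 1.24, 2.13 and 2.56 in null samples against -0.01, -0.43, 0.29 and 0.89 in siRNA samples, and its other tested probe differed by 0.69 and did not pass. Adcy9 gave 1.08 to 2.12 against -0.52 to 0.41. Neither gene's groups overlapped, as for 8.4% of tested probes in this direction.

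At the probe that stands for each gene, every call named for these lists ended with array pairs as a random block (for Rapgef3 in siRNA minus wild type at adjusted p = 0.0539), without the set term and with all 14 samples. Ampd3 probe 2911 kept its siRNA minus wild-type call with array pairs (2.87, adjusted p = 0.0447) and lost it without the set term (0.163) and with all 14 samples (0.265). Its null minus siRNA call ended in all 3 of these fits (0.0714, 0.165 and 0.491) and without siRNA replicate 3 (0.0552). Leaving out siRNA replicate 4 ended the Rapgef3 call against wild type (0.0752), and leaving out wild-type replicate 4 or siRNA replicate 3 or 4 ended those of Ampd3 and Xdh (for Xdh also wild-type replicate 3), at 0.0508 to 0.136. The Adcy2 call also ended with no filter on missing values, with columns scaled to 1 SD, and on leaving out any of 8 samples (wild-type 3 and 4, null 1, 2 and 3, siRNA 1, 3 and 4; 0.0554 to 0.200). In null minus siRNA, Slc29a3 lost it without null replicate 3 or 4 (0.0585 and 0.0889), Rapgef3 and Ahcyl2 without null or siRNA replicate 3 or 4 (0.0617 to 0.114), and Crem without null replicate 1 or 4 or siRNA replicate 3 (0.0519 to 0.0677). Adcy9, Adcy3 and Ak4 each lost it without 6 or 7 of the 11 samples (0.0502 to 0.129).

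**Figure D4:**
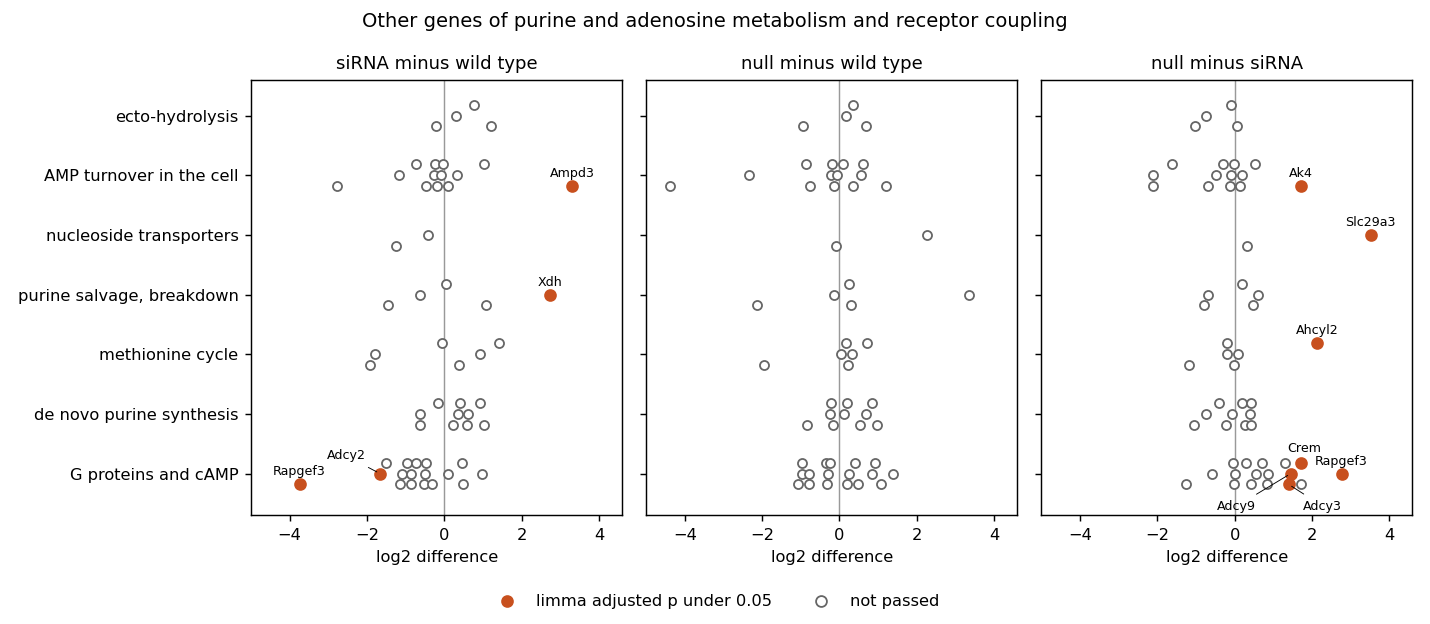
Fitted log2 difference (horizontal axis) of the 57 tested genes of the purine and adenosine lists (1 probe a gene), by list (vertical axis; small vertical offsets only separate points), in the 3 comparisons. Filled points passed at a limma adjusted p under 0.05 and are named. In siRNA minus wild type 4 passed, in null minus wild type 0 and in null minus siRNA 7, all 7 to the right of 0.

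Adora3 was the one adenosine receptor gene with a probe (3640), and it was not tested because 5 of the 11 samples had a value. It read -2.52 in wild-type replicate 6, -2.36 and -2.27 in null replicates 3 and 4, and 3.22 and 3.38 in siRNA replicates 3 and 4. The 2 siRNA values thus stood above the median probe and the other 3 below it, the opposite arrangement to Adk in the same samples. Wild type rests here on replicate 6 alone. Each null and siRNA pair may share an array, so group and array cannot be told apart. Of 17759 probes complete in replicates 3 and above, 38.7% had siRNA and wild-type samples that did not overlap, in either direction. For null and siRNA samples the share was 61.2%. Adora3 is outside the 10 genes and was singled out after its values were seen.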

How the data were processed

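Each sample has 1 column of log2 values as deposited by the authors. The sources used here do not say whether they are log2 intensities or ratios, nor give the scanner, background and filter steps. Groups came from sample titles. The model was limma 3.58.1 (lmFit, eBayes) in R 4.3.3 over 11 samples, with group, dye and replicate set, on 18479 probes measured in at least 2 samples of each group with every coefficient estimable and at least 2 residual degrees of freedom. P-values are two-sided, adjusted by Benjamini-Hochberg per comparison over all tested probes. The set term could not be estimated for Adk, so differences of means were used. No intensity or detection value was used, and the number of arrays limits precision. The code was tested on simulated data. Members and gene lists were chosen with earlier results of these data known. Every probe of a member was reported; for a list gene, the probe measured in most samples (ties by the higher mean) stood for it, and up to 8 called genes per comparison by adjusted p (at least 3 genes) were named. Gene names and positions came from the probe table and RefSeq (GRCm38.p6), where 197 of 198 list entries were found. Same-numbered samples of different groups deviated together (r = 0.121 to 0.647 over 8 pairs), but the number also fixes dye and set. Alternatives changed the covariates, samples, filter, scaling and weights, and left out each sample in turn.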

Additional observations from a re-analysis of the deposited data

Results flagged for a closer look

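Entpd2 was the 1 result flagged because a difference between groups changed with the replicate set, a check chosen after the values were seen. Null minus siRNA in replicates 1 and 2 exceeded that in replicates 3 and 4 by 2.96 ± 0.43 on the log2 scale (SE; limma interaction, adjusted p = 0.00592), with 1.07 in the first set and -1.90 in the second. Both null samples of the first set were higher than both siRNA samples, and both of the second were lower. Of 14728 probes with 8 values, 21.2% passed the same interaction. Other probes differed between the sets in the signal itself. Replicates 1 and 2 minus the others was -4.46 for Slc29a1 probe 30739 and -3.79 for Gja1. In 14 groups of 4 values checked for a sample far from the others, none was found.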

How the results depend on the processing

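Of 787 alternative values of single probes, 645 kept their direction and side of the threshold, 112 lost a call, 7 gained one, 21 moved and 2 reversed. Calls in siRNA minus wild type (1314) became 66 without the replicate set term, 180 with array pairs as a random block (correlation 0.467), 49 with all 14 samples (displaced rows included) and 1986 with array weights, and ran from 225 to 1339 when 1 sample was left out. Calls in null minus wild type (54) became 0 without the set term and 0 with all 14 samples, 1 with array pairs, 877 in replicates 3 and above, 35 with no filter on missing values, 114 after quantile normalization, 23 with columns scaled to 1 SD and 99 with array weights, and ran from 0 to 152. Calls in null minus siRNA (1115) became 75, 114 and 19 without the set term, with array pairs and with all 14 samples, 1893 in replicates 3 and above, 8004 in replicates 1 and 2 and 2884 with array weights, and ran from 293 to 1603. With the replicate number as a block the counts were 1592, 224 and 1748. Replicate 6 occurs only in wild type, so in that fit wild type rests on replicates 3 and 4 alone. Ahcyl1 kept its call there in null minus wild type (2.28, limma adjusted p = 0.0286), as did each called list gene that could be fitted with the block. Entpd2 in null minus siRNA turned to 1.07 in replicates 1 and 2, and Adcy2 in siRNA minus wild type to 0.16 with all 14 samples; the cause was not tested. Each comparison rests on at most 3 or 4 samples a group, and for some probes on 2. Pairs of samples may share an array, and signal over background is unknown. The fit on replicates 1 and 2 alone had 2 samples a group and allowed 1 residual degree of freedom.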
